A study of Homo sapiens with 6 samples.

Results

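The nuclear genes of oxidative phosphorylation were compared between HCT-116 cells given the compound AAPK and cells given DMSO. Members were taken by symbol alone: those starting with NDUF, SDHA to SDHD, those starting with UQCR, COX4 to COX8 or ATP5, and CYC1 and CYCS. This gave 93 of the 18132 genes measured, from 213 of the 44988 probe sets that name 1 gene symbol. They were 36 subunits of complex I, 3 of complex II, 9 of complex III, 16 of complex IV, 18 of complex V, 8 complex I assembly factors, cytochrome c (CYCS), the supercomplex factor COX7A2L, and ATP5MGL, which was assigned to no complex. A probe set is a group of oligonucleotides on the array that together read out a transcript. Where a gene had several, the brightest by mean over the 6 arrays was used, whatever its group.

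Oxidative phosphorylation is the last stage of respiration and takes place in the inner membrane of mitochondria. Complexes I and II take electrons from NADH and succinate and pass them through coenzyme Q to complex III, from where cytochrome c carries them to complex IV, which hands them to oxygen. Complexes I, III and IV pump protons, and complex V, the ATP synthase, lets the protons flow back to make ATP. The subunits come from both the nuclear and the mitochondrial genome, and dedicated assembly factors put them together without staying in the finished complex.

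HCT-116 is an established human colorectal carcinoma line, which the labels describe as high in Aurora-A and PLK-1, the kinases that the series title names as the targets of AAPK. Total RNA went onto Affymetrix PrimeView arrays, 3 for DMSO, the vehicle, and 3 for AAPK. All 6 samples carry the same treatment entry of 10 µM for 48 h, which is read here as the dose of AAPK, with DMSO over the same time in the controls. Nothing in the labels says that replicates came from separate cultures. The p-values therefore reflect the spread among these 6 samples alone, and that spread may be technical.

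The arrays were alike in level, with median log2 signals between 6.46 and 6.50, and correlated at 0.998 within a group and at 0.994 to 0.995 between groups. Of 12 epithelial markers, 4 lay above the median signal of all genes: the keratins KRT8 and KRT18, the tight-junction gene CLDN4 and the intestinal factor CDX1. The adhesion genes EPCAM and CDH1, which often serve to define epithelium, were dim, at mean signals of 3.45 and 5.11 in DMSO, and 7 of the 12 lay under the 25th percentile. KRT8 was the 1 marker that passed the test (0.17, adjusted p 0.0402). Of the fibroblast, endothelial and blood cell markers, 0 of 9, 3 of 6 and 3 of 7 lay above the median signal. The mean level of each of these lists overlapped between the groups, at 5.55 to 5.67 in DMSO and 5.57 to 5.62 in AAPK for fibroblast, 6.28 to 6.35 and 6.22 to 6.32 for endothelial, and 5.92 to 5.97 and 5.89 to 5.93 for blood cell markers. The control probe sets for actin and GAPDH did not pass, but 3 of 6 for ribosomal RNA did, and the part of RNA quality in the results was not tested.

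Of the 93 members, 30 were higher in AAPK at an adjusted p under 0.05 (limma, Benjamini-Hochberg over 18132 genes), 0 were lower, and 63 did not pass. Over all genes 8.11% were called higher and 7.26% lower. Without adjustment 45 members were higher and 1 lower at a p under 0.05. At that threshold 4861 of the 18132 genes passed, in either direction. The members' median log2 change, AAPK minus DMSO, was 0.099 against -0.0165 over all genes, and 81.7% of members lay above zero against 42.6% of all genes. Changes ran from -0.12 for NDUFS7 to 0.42 for NDUFAF7. In 55 members every AAPK array was above every DMSO array and in 2 every AAPK array was below, where the shares over all genes were 14.9% and 17.1%. In bulk RNA, fewer cells of a kind and less RNA per cell cannot be told apart, and every change is relative to the other genes on the array.

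Members are bright, and the share of genes called higher grew with brightness across the whole array. It ran from 0.552% in the dimmest decile of genes to 28.1% in the brightest, where 75 members lay. There, 24 of the 75 members were called higher, or 32%, beside the 28.1% of their decile. None of the 75 was called lower, beside 11.5% of the decile. The median change was 0.10 for these members and 0.052 for the decile. The members' share called higher was thus near that of their signal decile, and the share called lower stood further away. Genes were not matched for brightness within the decile, and neither difference was tested.

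**Figure D1:**
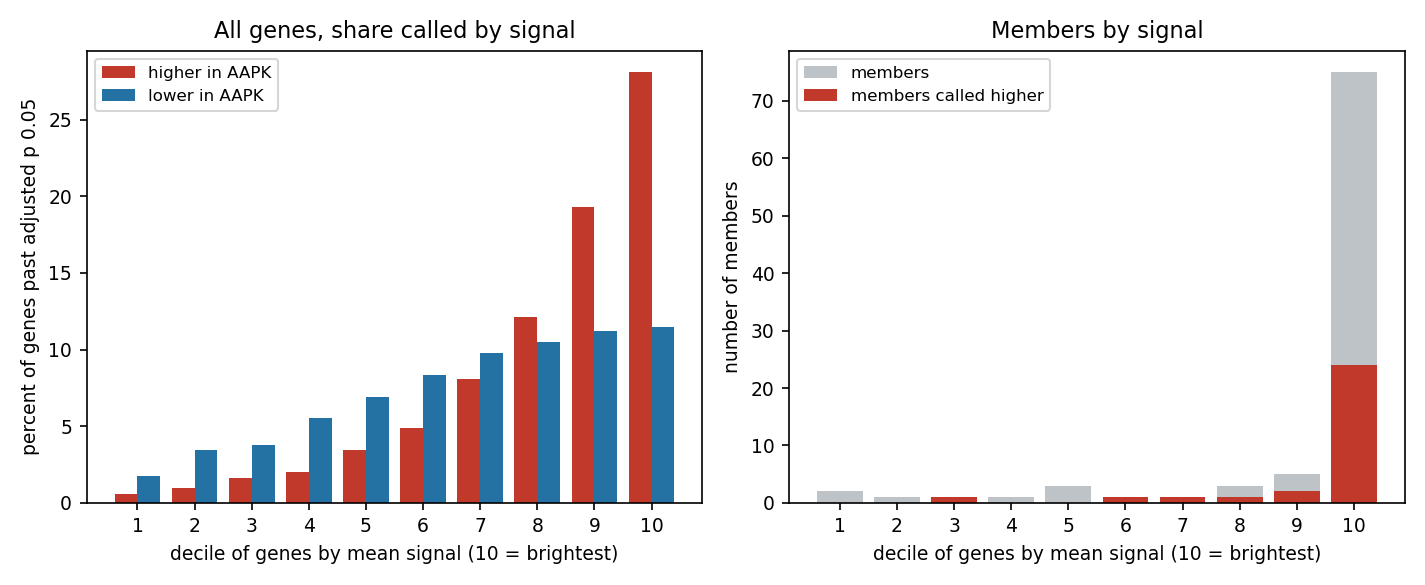
Left, percent of all genes past an adjusted p of 0.05, higher (red) or lower (blue) in AAPK, in 10 groups of nearly equal size by mean signal. Right, number of members in each of those groups, with those called higher in red. The share of genes called higher rises to 28.1% in the brightest decile, which holds 75 of the 93 members and 24 of the 30 called higher.

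The calls were spread unevenly over the complexes. Complex V had 9 of 18 genes called higher (median change 0.14) and the complex I assembly factors 4 of 8 (median 0.21). Complex I had 12 of 36 (median 0.12), complex III 2 of 9 (median 0.091), complex IV 2 of 16 (median 0.032) and complex II 0 of 3 (median 0.014). Without its 6 isoforms known from muscle, lung or testis, complex IV had 2 of 10 and a median of 0.051. Over all genes 8.11% were called higher, and 28.1% in the brightest decile, where the median signal of each complex lay. Complexes I and III, at 33.3% and 22.2%, were near the latter. The assembly factors had a median signal at the 74.7th percentile, in a decile with 12.1% called higher. The lowest medians of whole groups changed sign. That of complex II was -0.054 after quantile and -0.044 after cyclic loess normalisation (and -0.0075 without AAPK replicate 3). That of all 16 complex IV genes was -0.016 after cyclic loess. The medians of complexes I, III and V and of the assembly factors stayed above zero under both and under median centring, but complex V had 5 calls after cyclic loess. No test of the difference between complexes was made.

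**Figure D2:**
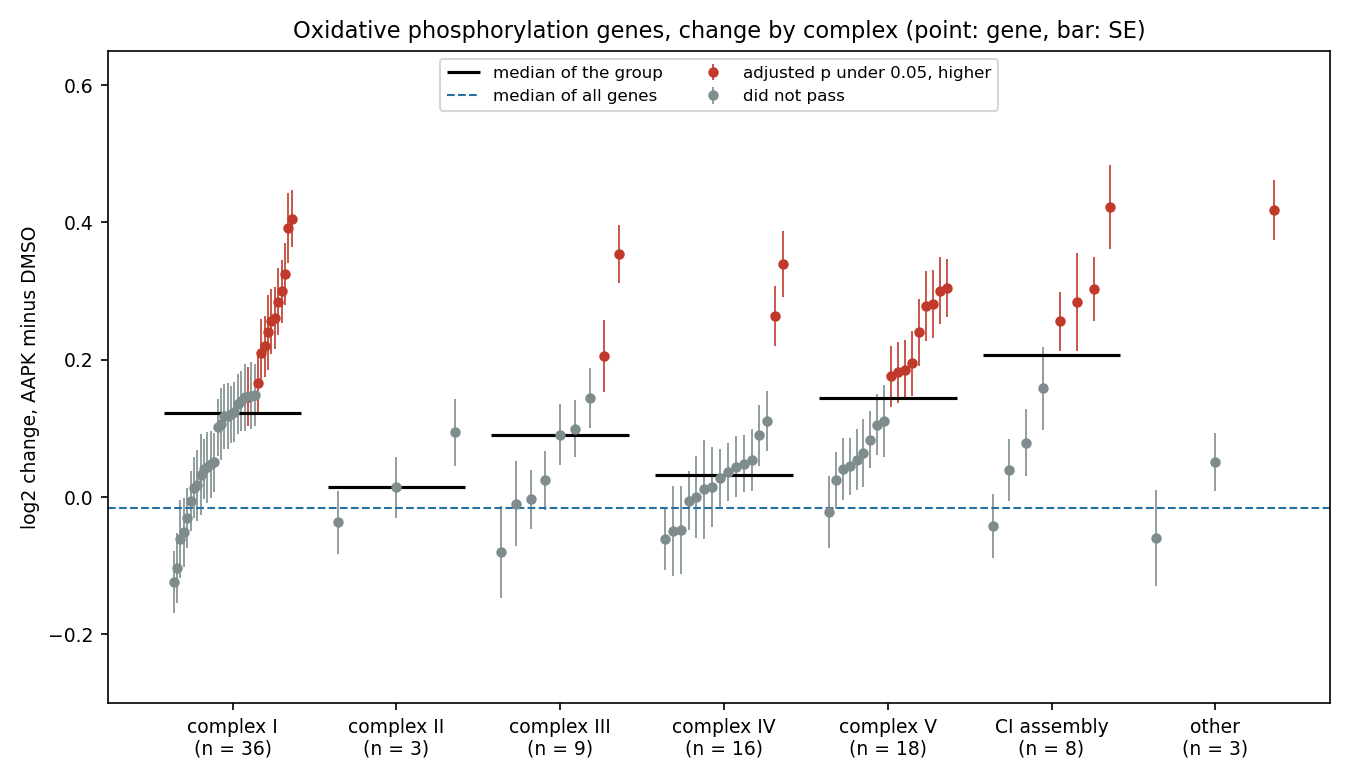
Log2 change, AAPK minus DMSO, of each of the 93 members (points; bars are standard errors from limma), grouped by complex and ordered by size. "Other" holds CYCS, COX7A2L and ATP5MGL. Red points passed an adjusted p of 0.05, black lines are group medians, and the dashed line is the median of all genes. All 30 red points lie above zero, 12 in complex I and 9 in complex V.

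**Figure D3:**
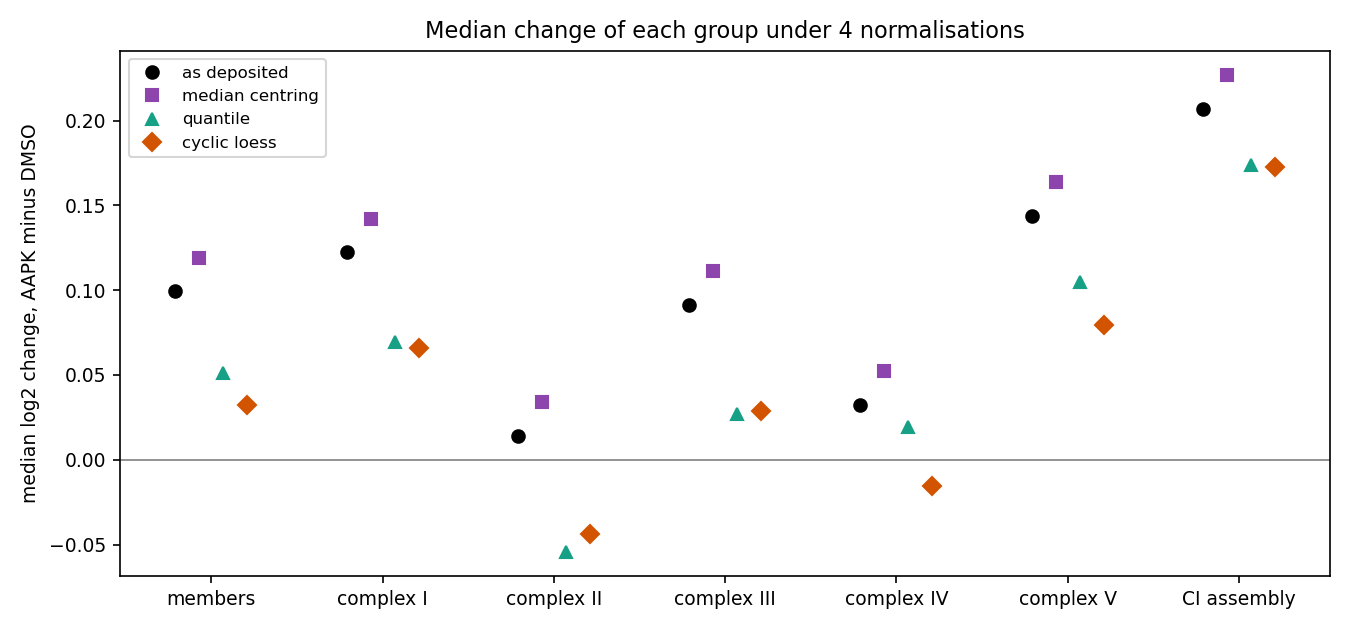
Median log2 change of the members and of each group (vertical axis) with the values as deposited and after median centring, quantile or cyclic loess normalisation. The assembly factors have the highest median under all 4 settings, from 0.17 to 0.23, and complexes II and IV are the groups whose median crosses zero.

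Promoter sequences were read to see what the members share that the choice by symbol did not use. Many respiratory genes are known targets of the factor NRF1, of the ETS factor GABP and of YY1. RefSeq windows of GRCh38.p14, from 250 bases before to 50 after a gene's start, were found for 76 members, 94 windows in all. The letters GCATGCGC (NRF1), on either strand, were in 18.1% of the members' windows. They were in 3.05% of all 35116 windows and in 3.72% of those of the genes tested. For CCGGAAG (ETS) these shares were 25.5%, 10.3% and 13.0%, and for AAGATGGC (YY1) 14.9%, 2.89% and 3.62%. The motifs were searched independently, so that a window may hold several. NRF1 letters were in 8 of 29 windows of members called higher and in 9 of 65 windows of members that did not pass (27.6% and 13.8%). The other motifs leaned the other way, at 20.7% and 27.7% for ETS and 13.8% and 15.4% for YY1. None of these differences was tested. A match describes letters and is not a shown site of binding. Stretches around the match, upstream of the start, are printed for 6 members called higher, with the matched letters in capitals and overlapping matches joined. They lie at chr7:25125402-25125449 (minus strand) for CYCS, chr3:120596159-120596206 (plus) for NDUFB4, chr10:7788137-7788176 (plus) for ATP5F1C, chr4:674327-674374 (minus) for ATP5ME, chr21:25735147-25735194 (minus) for ATP5PF and chr7:123557949-123557996 (minus) for NDUFA5.
CYCS: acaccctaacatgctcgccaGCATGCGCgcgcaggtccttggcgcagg
NDUFB4: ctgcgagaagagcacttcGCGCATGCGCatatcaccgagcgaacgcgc
ATP5F1C: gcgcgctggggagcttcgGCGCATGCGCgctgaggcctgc
ATP5ME: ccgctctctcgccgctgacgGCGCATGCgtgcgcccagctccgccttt
ATP5PF: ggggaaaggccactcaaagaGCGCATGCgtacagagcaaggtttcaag
NDUFA5: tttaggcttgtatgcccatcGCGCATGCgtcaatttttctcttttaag

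The same letters stood upstream of members that did not pass, of which 3 are printed for contrast: SDHD at chr11:112086745-112086792 (plus), NDUFS7 at chr19:1383814-1383861 (plus) and COX5B at chr2:97645906-97645953 (plus). SDHD holds the same run of capitals as NDUFB4, while the changes of these genes were 0.014 and 0.41.
SDHD: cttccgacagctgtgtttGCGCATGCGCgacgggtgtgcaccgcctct
NDUFS7: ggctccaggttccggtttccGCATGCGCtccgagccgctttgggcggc
COX5B: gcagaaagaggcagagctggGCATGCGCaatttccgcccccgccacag

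Complex I, the NADH dehydrogenase, has a matrix arm that oxidises NADH (N-module) and reduces coenzyme Q (Q-module), and a membrane arm that pumps protons. Of the 6 core genes of the matrix arm measured, 1 was called higher (16.7%, beside 28.1% in the brightest decile of all genes). Their median change was -0.033, below zero under each scaling tried. NDUFV1, which binds NADH, read 9.48, 9.48 and 9.41 in DMSO and 9.39, 9.40 and 9.27 in AAPK. All AAPK arrays lay below all DMSO arrays, with a change of -0.10 ± 0.05 (SE) that did not pass (adjusted p 0.23). NDUFS7, which carries the last iron-sulfur cluster before coenzyme Q and is singled out here after its values were seen, read 9.83, 9.78 and 9.80 in DMSO and 9.71, 9.71 and 9.62 in AAPK. Here too the groups did not overlap, and the change was -0.12 ± 0.05 (adjusted p 0.107). It passed as lower after quantile normalisation, at -0.19 (adjusted p 0.0151), and under 3 other settings. NDUFS1, the large iron-sulfur subunit, had overlapping groups and a change of -0.061 (adjusted p 0.562). NDUFV2, an iron-sulfur subunit of the N-module and the 1 core gene called, read 9.86, 9.82 and 9.90 in DMSO and 10.09, 10.17 and 10.08 in AAPK. It rose by 0.26 ± 0.05 (adjusted p 0.00478), with all AAPK arrays above all DMSO arrays.

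Accessory subunits, which surround the core and stabilise it, supplied the other 11 calls of complex I. In the membrane arm 7 of 20 genes were called higher (35%) and 19 lay above zero (95%), with a median change of 0.14. In the brightest decile of all genes, which holds the arm's median signal, 28.1% were called higher and 63.1% lay above zero. Without AAPK replicate 2 the calls were 4. NDUFB4, a small subunit of the far end of the membrane arm, read 10.78, 10.76 and 10.78 in DMSO and 11.16, 11.18 and 11.19 in AAPK. The gap between the groups was many times the spread within them, and the change was 0.41 ± 0.04 or 1.32-fold (adjusted p 1.45e-04). NDUFB3, another small subunit of that end, read 10.48, 10.37 and 10.47 in DMSO and 10.83, 10.77 and 10.89 in AAPK. Again the groups were apart, with a change of 0.39 ± 0.05 (adjusted p 6.38e-04). NDUFA8, NDUFS5 and NDUFB7, which face the intermembrane space, rose by 0.28, 0.26 and 0.24 (adjusted p 0.00279, 0.00326 and 0.0137). NDUFB8 and NDUFB1, also membrane arm subunits, rose by 0.17 and 0.15 (adjusted p 0.0321 and 0.0437).

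In the matrix arm the called accessory genes were NDUFA2, NDUFA12 and NDUFA5, and NDUFAB1 was called beside them. NDUFAB1, the mitochondrial acyl carrier protein that also serves fatty acid synthesis, read 10.47, 10.41 and 10.46 in DMSO and 10.75, 10.81 and 10.75 in AAPK. The groups did not overlap, and the change was 0.33 ± 0.05 (adjusted p 8.74e-04). NDUFA2 of the N-module read 9.66, 9.59 and 9.66 in DMSO and 9.90, 9.98 and 9.93 in AAPK, a rise of 0.30 ± 0.05 (adjusted p 0.00162). NDUFA5, of the Q-module, rose by 0.22 and NDUFA12, an accessory subunit near the core, by 0.21 (adjusted p 0.00751 and 0.0144).

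The smaller calls of complex I did not hold under every setting. NDUFB1 lost its call in 6 of 6 runs that left out 1 array (adjusted p 0.0548 without DMSO replicate 3 to 0.135 without DMSO replicate 1), where its change stayed between 0.13 and 0.16, and after quantile normalisation (0.084, adjusted p 0.225). NDUFB8 lost it in 5 of 6, keeping it without AAPK replicate 3, and reached 0.197 after quantile normalisation. NDUFA12 lost it after quantile (0.0561) and cyclic loess normalisation (0.0636), without DMSO replicate 1 (0.0602) and without AAPK replicate 2 (0.0513), and NDUFB7 without AAPK replicate 2 (0.0531). NDUFA8 has a dimmer probe set at -0.078, and its call went when the sets were averaged (adjusted p 0.184). Both other NDUFB3 sets passed in the same direction, at 0.35 and 0.28. For NDUFB4, 1 further set holds the same values as the set used on every array, and the only distinct one read 0.21 and did not pass (adjusted p 0.0776 over all probe sets). NDUFS3, a core subunit of the Q-module with a change of 0.10 that did not pass, has a dim second set that passed at -0.23.

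The complex I assembly factors build the enzyme from its modules. NDUFAF7, a mitochondrial methyltransferase, read 7.12, 6.996 and 7.23 in DMSO and 7.56, 7.56 and 7.49 in AAPK. The DMSO arrays were spread more widely than the AAPK arrays but did not reach them, and the change was 0.42 ± 0.06 or 1.34-fold (adjusted p 0.00113). NDUFAF6, needed for early assembly, read 7.51, 7.42 and 7.44 in DMSO and 7.73, 7.75 and 7.80 in AAPK, without overlap, a rise of 0.30 ± 0.05 (adjusted p 0.00162). NDUFAF1, which helps to build the membrane arm, read 8.10, 8.15 and 8.12 in DMSO and 8.41, 8.37 and 8.36 in AAPK, a rise of 0.26 ± 0.04 (adjusted p 0.00263). NDUFAF5, a hydroxylase that acts on NDUFS7, rose by 0.28 ± 0.07 (adjusted p 0.0221) from a signal at the 29.7th percentile of genes. Of the 4 that did not pass, NDUFAF2 had 0.16 with no overlap, NDUFAF3 0.08, NDUFAF8 0.039 and NDUFAF4 -0.042. NDUFAF5 lost its call without DMSO replicate 1 (0.0517), AAPK replicate 1 (0.081) or AAPK replicate 3 (0.0614). The other NDUFAF6 sets read 0.16, -0.027 and -0.12, and its call was lost with their mean (0.194), whereas a second NDUFAF7 set passed at 0.41 and a second NDUFAF1 set at 0.26.

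Complex II, succinate dehydrogenase, also belongs to the citric acid cycle and is encoded entirely in the nucleus. None of its 3 measured genes passed, at an unadjusted p under 0.05 or after adjustment, by limma. SDHA, the flavoprotein that oxidises succinate, read 11.53, 11.52 and 11.56 in DMSO and 11.47, 11.56 and 11.47 in AAPK. The groups overlapped, and the change was -0.037 ± 0.045 (adjusted p 0.674). The membrane anchors SDHC and SDHD also overlapped, with changes of 0.094 ± 0.048 (adjusted p 0.25) and 0.014 ± 0.044 (adjusted p 0.884). These values do not show that complex II was the same in both groups, only that no change passed with 3 arrays a group.

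Complex III, the cytochrome bc1 complex, passes electrons from coenzyme Q to cytochrome c. UQCR10, a small subunit next to the catalytic part, read 11.33, 11.30 and 11.31 in DMSO and 11.66, 11.70 and 11.65 in AAPK. Both groups were tight and far apart, with a change of 0.35 ± 0.04 or 1.28-fold (adjusted p 3.76e-04). UQCRB, a coenzyme Q binding subunit, read 9.47, 9.38 and 9.51 in DMSO and 9.61, 9.64 and 9.73 in AAPK, a rise of 0.21 ± 0.05 (adjusted p 0.025). CYC1, the catalytic cytochrome c1, read 11.30, 11.30 and 11.27 in DMSO and 11.31, 11.34 and 11.28 in AAPK. These overlapped, with a change of 0.025 (adjusted p 0.782). The core proteins UQCRC1 and UQCRC2 had changes of -0.0093 and 0.091, neither past the threshold. UQCRH, the acidic hinge protein, stood at 0.14 with no overlap and an adjusted p of 0.0507. UQCRHL is a near-identical copy of it, so reads of the pair cannot be kept apart with certainty, and it had -0.08 (adjusted p 0.511). UQCRB lost its call after quantile (0.113) and cyclic loess normalisation (0.0966), and without DMSO replicate 1 (0.0646), DMSO replicate 2 (0.0819), AAPK replicate 2 (0.0531) or AAPK replicate 3 (0.0794).

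CYCS, cytochrome c, shuttles electrons between complexes III and IV and, once released into the cytosol, takes part in apoptosis. Its signals were 10.12, 10.12 and 10.19 in DMSO and 10.58, 10.55 and 10.54 in AAPK. The groups were far apart beside their spread, with a change of 0.42 ± 0.04 or 1.34-fold (adjusted p 1.65e-04). A second CYCS probe set passed at 0.39, and a dim one read 0.056. The gene has many processed pseudogenes, which could share probes with it. COX7A2L, which links complexes III and IV into supercomplexes, had 0.051 ± 0.042 (adjusted p 0.497).

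Complex IV, cytochrome c oxidase, hands electrons to oxygen through a core that is encoded in mitochondrial DNA, with nuclear subunits around it. COX6B1, which faces the intermembrane space near the cytochrome c site, read 10.75, 10.70 and 10.78 in DMSO and 11.07, 11.14 and 11.03 in AAPK. The groups did not overlap, and the change was 0.34 ± 0.05 or 1.27-fold (adjusted p 9.81e-04). COX7B, a small membrane subunit, read 11.82, 11.75 and 11.78 in DMSO and 12.04, 12.04 and 12.06 in AAPK, a rise of 0.26 ± 0.04 (adjusted p 0.00232). None of the other 8 ubiquitous subunits passed. The largest changes among them were 0.11 for COX7A2 (adjusted p 0.126) and 0.09 for COX6C (adjusted p 0.227), both without overlap. COX4I1, the regulatory subunit that binds ATP, read 12.04, 12.004 and 12.05 in DMSO and 12.04, 12.07 and 12.06 in AAPK, and COX5A, its neighbour, differed by 0.054. The adjusted p values were 0.743 and 0.51. The 6 isoforms known from muscle, lung or testis (COX4I2, COX6A2, COX6B2, COX7A1, COX7B2 and COX8C) had a median signal percentile of 23.6, changes of -0.06 to 0.015 and no call. The COX6B1 and COX7B calls were kept under all 16 alternative settings, and a second COX7B set passed at 0.25.

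**Figure D4:**
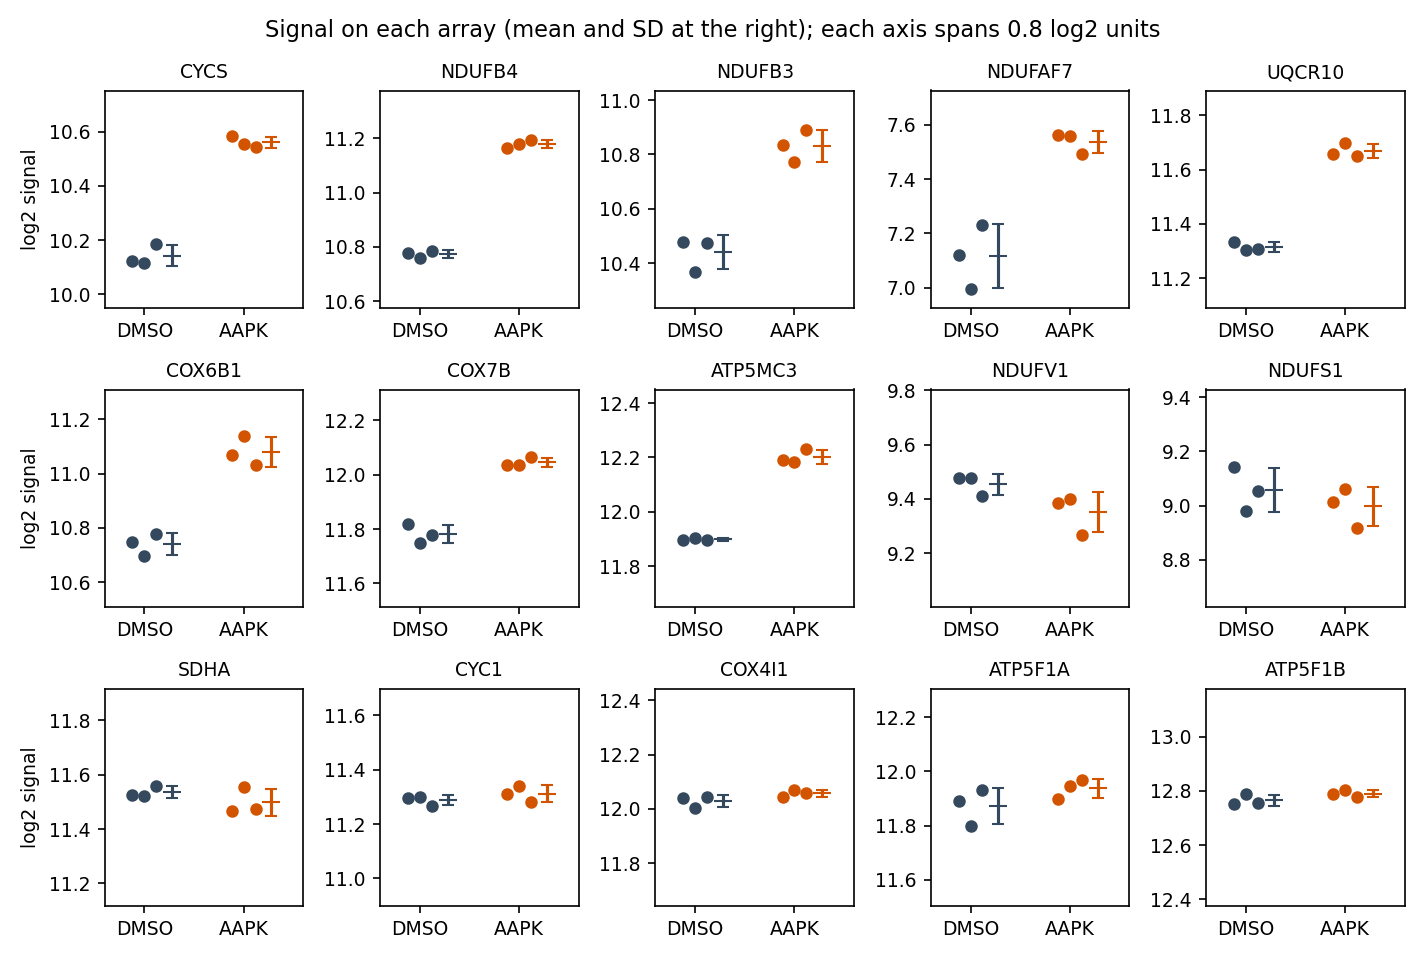
Log2 signal on each array (points; DMSO dark, AAPK orange), with group mean and SD at the right, for 8 members called higher and 7 catalytic or landmark members that were not. Each axis spans 0.8 log2 units, so that gaps can be compared by eye. In CYCS, NDUFB4, NDUFB3, NDUFAF7, UQCR10, COX6B1, COX7B and ATP5MC3 the groups do not overlap; in NDUFS1, SDHA, CYC1, COX4I1, ATP5F1A and ATP5F1B they do, and in NDUFV1 the AAPK arrays lie just below.

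Complex V, the ATP synthase, is made of the catalytic F1 head, a ring of c subunits that turns, a peripheral stalk that holds the head, and accessory subunits of the membrane part Fo. The catalytic subunits did not pass. ATP5F1A (alpha) read 11.89, 11.80 and 11.93 in DMSO and 11.90, 11.95 and 11.97 in AAPK, and ATP5F1B (beta) 12.75, 12.79 and 12.76 against 12.79, 12.80 and 12.78. Both overlapped, with changes of 0.065 and 0.025 (adjusted p 0.463 and 0.774), although a second ATP5F1A set passed at 0.17. In the F1 shaft, ATP5F1C (gamma) read 9.55, 9.54 and 9.62 in DMSO and 9.78, 9.88 and 9.89 in AAPK, without overlap. It rose by 0.28 ± 0.05 (adjusted p 0.00343), and ATP5F1E (epsilon) rose by 0.18 ± 0.04 (adjusted p 0.0232). ATP5F1D (delta), also of the shaft, stood at -0.021 (adjusted p 0.851), with its other sets at -0.024 and -0.011. ATP5IF1, the inhibitor that stops ATP hydrolysis, had 0.084 with no overlap (adjusted p 0.233).

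The c-ring is encoded by 3 genes whose mature proteins are identical, and 2 of them were called. ATP5MC3 read 11.90, 11.90 and 11.89 in DMSO and 12.19, 12.18 and 12.23 in AAPK. The groups were tight and apart, with a change of 0.30 ± 0.04 or 1.23-fold (adjusted p 8.69e-04), and 2 further sets of the gene passed at 0.44 and 0.39. ATP5MC1 read 9.91, 9.91 and 10.02 in DMSO and 10.28, 10.23 and 10.17 in AAPK, a rise of 0.28 ± 0.05 (adjusted p 0.00429). ATP5MC2, the other copy, stood at 0.041 with overlapping groups (adjusted p 0.627).

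All 12 genes of the c-ring, peripheral stalk and Fo accessory group lay above zero and 7 were called (58.3%). In the brightest decile of all genes, which holds their median signal, 63.1% lay above zero and 28.1% were called higher. In the stalk, ATP5PF (F6) rose by 0.24 and ATP5PB (b) by 0.18 (adjusted p 0.00771 and 0.0191). Among Fo accessory subunits, ATP5MK (DAPIT), which helps dimers of the enzyme to form, read 10.48, 10.35 and 10.45 in DMSO and 10.71, 10.70 and 10.77 in AAPK, a rise of 0.30 ± 0.05 (adjusted p 0.00238). ATP5ME (e) and ATP5MF (f) rose by 0.19 each (adjusted p 0.0188 and 0.0164). The median change was 0.19 for the 5 Fo accessory genes and 0.065 for the 5 F1 genes, which was -0.0019 after cyclic loess.

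The smaller calls of complex V were less stable, and the complex had 5 calls without AAPK replicate 2 and 6 without DMSO replicate 2. ATP5F1E lost its call after cyclic loess (0.136) and without any array except AAPK replicate 1 (0.0587 to 0.0698). ATP5ME lost it after quantile normalisation (0.0827) and without DMSO replicate 2 (0.0623), AAPK replicate 2 (0.0537) or AAPK replicate 3 (0.0578). ATP5MF lost it after quantile normalisation (0.0782) and without DMSO replicate 2 (0.0512), AAPK replicate 1 (0.0605) or AAPK replicate 2 (0.0577). ATP5PB lost it after cyclic loess (0.106) and without DMSO replicate 1 (0.0886) or AAPK replicate 2 (0.0708). The other ATP5F1C sets read 0.079 and 0.014, and its call was lost with their mean (0.0897).

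Probe sets of a gene did not always move alike. Other sets existed for 58 members, 120 sets in all, of which 91 had the sign of the brightest and 22 passed. In 24 members at least 1 set differed in sign. Of the 16 called members with other sets, all sets had the same sign in 12, with exceptions in NDUFA8, NDUFAF6, ATP5MC3 and ATP5MK. The counts include an NDUFB4 set whose values equal those of the set used, and 2 SDHD sets with the same mean signal, change and SE. Some members that did not pass had another set that did: ATP5F1A (0.17), NDUFA3 (0.24 and 0.26), UQCR11 (0.18), NDUFAF4 (-0.20) and NDUFS3 (-0.23).

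Mitochondrial DNA encodes core subunits of complexes I, III, IV and V, and 3 of these had a probe set with 1 symbol. ND1, a membrane core subunit of complex I, read 12.56, 12.77 and 12.64 in DMSO and 12.18, 12.18 and 11.85 in AAPK. All AAPK arrays lay below all DMSO arrays, and it fell by 0.59 ± 0.09 on the log2 scale (adjusted p 0.00149), a call kept under all 16 alternatives. COX3, a core subunit of complex IV, read 13.30, 13.29 and 13.35 against 13.18, 13.10 and 13.18 and fell by 0.16 (adjusted p 0.039). That call was lost in 11 of 16 alternatives, each of the 6 that left out 1 array among them (adjusted p up to 0.135), and a second COX3 set stood at -0.21 (adjusted p 0.139). ND4, another complex I core subunit, overlapped between groups at -0.053 (adjusted p 0.518).

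Assembly factors outside the symbol rule, for complexes I to V, were read too, and 10 of 43 were higher (23.3%) and 3 lower (6.98%), with a median change of 0.042. Over all genes the shares were 8.11% and 7.26%, and in the signal decile that holds the median signal of this list 19.3% and 11.2%. The 4 largest changes all concern complex IV. COX16, an assembly factor of the inner membrane, read 8.64, 8.55 and 8.68 in DMSO and 9.12, 9.16 and 9.17 in AAPK, a rise of 0.52 ± 0.05 (adjusted p 6.7e-05). COX17, the copper chaperone of the intermembrane space, read 9.22, 9.21 and 9.25 against 9.62, 9.68 and 9.68 and rose by 0.43 ± 0.04 (adjusted p 1.2e-04). COX14, which acts on the core subunit COX1, rose by 0.43 ± 0.05 (adjusted p 1.88e-04). SCO2, a copper carrier for COX2, read 9.29, 9.26 and 9.21 against 8.92, 8.97 and 8.79 and fell by 0.36 ± 0.06 (adjusted p 0.00149). Its paralog SCO1, named after its values were seen, moved the other way, from 8.002, 8.03 and 8.06 to 8.34, 8.47 and 8.31, a rise of 0.34 ± 0.05 (adjusted p 0.00154). These 5 calls were kept under all 16 alternatives, while the count called lower was 1 without DMSO replicate 1.

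Regulators of mitochondrial biogenesis control many respiratory genes, and 2 of 11 were higher (18.2%) and 3 lower (27.3%), beside 8.11% and 7.26% of all genes, with a median change of -0.036. PPARGC1A, the coactivator PGC-1alpha, read 8.41, 8.34 and 8.41 in DMSO and 7.91, 7.92 and 7.94 in AAPK. It fell by 0.46 ± 0.04 (adjusted p 8.78e-05). The call was kept under all 16 alternatives, with changes from -0.49 to -0.27, and its 3 other sets read -0.31 to -0.14. GABPA, the DNA-binding part of GABP, read 7.06, 7.14 and 7.26 against 6.80, 6.63 and 6.85 and fell by 0.39 ± 0.07 (adjusted p 0.00339), but another set read 0.11 and the mean of both did not pass. YY1 fell by 0.21 (adjusted p 0.0255), and its 6 other sets read -0.15 to -0.038 without passing. That call was lost with the mean of its sets, without DMSO replicate 1 or 3 and without AAPK replicate 1 or 2 (adjusted p up to 0.116 over all alternatives). HCFC1, a chromatin cofactor, and PPRC1, a relative of PPARGC1A, rose by 0.20 and 0.19 (adjusted p 0.0103 and 0.0409). HCFC1's 3 other sets read -0.081 to -0.014, and its call was lost with the mean of its sets and without DMSO replicate 1. PPRC1 lost its call in 5 of 6 runs that left out 1 array. NRF1 itself stood at -0.13 (adjusted p 0.157). Calls among the regulators thus went both ways, and without DMSO replicate 1 there were 0 higher and 2 lower, with a median of 0.018.

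**Figure D5:**
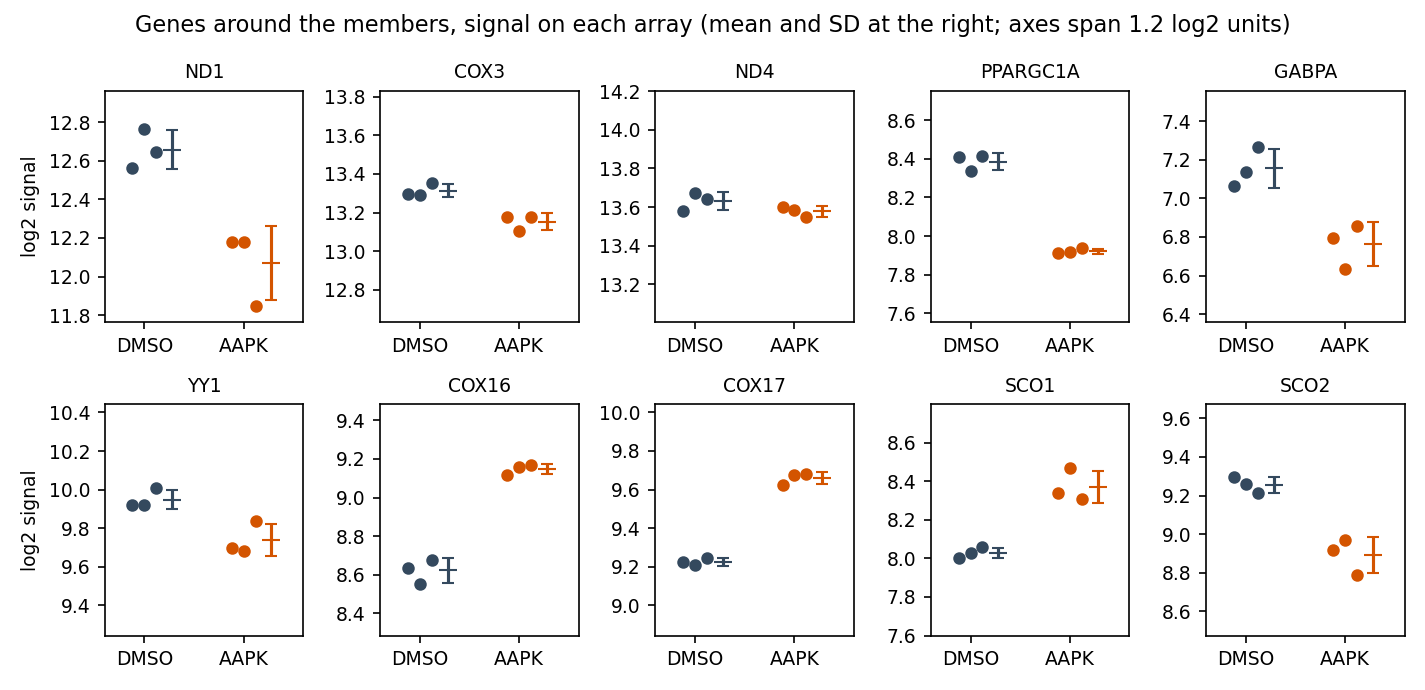
Log2 signal on each array (points; DMSO dark, AAPK orange), with group mean and SD at the right, for genes outside the members: 3 mitochondrially encoded subunits, 3 regulators and 4 complex IV assembly factors. Each axis spans 1.2 log2 units. ND1, COX3, PPARGC1A, GABPA, YY1 and SCO2 lie lower in AAPK without overlap, COX16, COX17 and SCO1 lie higher, and ND4 overlaps.

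Enzymes of coenzyme Q, the carrier between complexes I, II and III, gave 1 higher (7.69%) and 3 lower (23.1%) of 13, beside 8.11% and 7.26% of all genes, with a median change of -0.069. COQ10A, a coenzyme Q binding protein, fell by 0.35 ± 0.04 (adjusted p 4.85e-04), and the call was kept under all 16 alternatives with changes from -0.39 to -0.33. COQ5, a methyltransferase of the pathway, fell by 0.26 and COQ8A, an atypical kinase, by 0.22 (adjusted p 0.00857 and 0.0143). COQ10B rose by 0.17 (adjusted p 0.0421), and lost the call without DMSO replicate 1 or 2 and without AAPK replicate 2 or 3, while both of its other sets passed at 0.26 and 0.30. Leaving out DMSO replicate 1 or AAPK replicate 1 ended the COQ8A call, as did the mean of its sets. The 2 other COQ8A sets read -0.15 and 0.0011. Over all alternatives the adjusted p reached 0.138 for COQ8A and 0.142 for COQ10B.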

How the data were processed

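The deposited table gives log2 signal values of 49395 probe sets on 6 arrays, running from 2.83 to 14.25, and the log2 scale was read from the values. The arrays' median signals are nearly equal, at 6.46 to 6.50. How background was corrected, arrays were normalised and probes summarised is not given in the sources used here. Names came from the platform's gene table, and probe sets with several symbols (1832), none (2473) or control status (102) were left out. SDHB, UQCRFS1, NDUFA4 and NDUFA4L2, without a probe set of their own symbol here, were not analysed here. Differences (AAPK minus DMSO) were fitted for all 18132 genes with limma 3.58.1 in R 4.3.3 (lmFit, eBayes, two-sided, group as the only term, Benjamini-Hochberg, threshold 0.05). The code was also run on simulated data, and no result here rests on that run. Errors are moderated standard errors, and the number of arrays limits the precision.

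Members and lists were chosen with earlier results of these data known, so that no p-value over a list is given. Named were every member past the threshold, the 2 largest changes per complex, a set of landmark subunits and the tissue isoforms, and up to 4 largest called genes per other list. Other members and SCO1, PPRC1, NRF1, ND4 and the markers shown were named after their values were seen. Alternatives covered 3 normalisations, 2 filters on dim genes, 2 choices of probe set, an intensity trend, array weights, the replicate block and leaving out each array.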

Additional observations from a re-analysis of the deposited data

Results flagged for a closer look

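These probe sets lie outside the comparison of single genes, because they name several symbols or are ribosomal RNA controls, and passed an adjusted p of 0.05 when limma was run over all probe sets. Among sets naming a member together with another gene, 1 for COX7A2 and TMEM30A changed by 0.28 (adjusted p 0.00721), while the other set of that pair changed by -4e-04. The set for NDUFS3 and PTPMT1 changed by 0.31 (adjusted p 0.00213), higher than the 0.10 of the NDUFS3 set used above. The set for ATP5MF and the read-through ATP5MF-PTCD1 changed by 0.19 (adjusted p 0.0346), like ATP5MF itself. Of the 3 sets for PTCD1 and ATP5MF-PTCD1, 2 changed by -0.24 and -0.29 (adjusted p 0.0217 and 0.00638), against the direction of ATP5MF, and the third stood at -0.065 (adjusted p 0.497). Of the ribosomal RNA controls, the 3' set of the small subunit changed by -0.41 (adjusted p 0.00228). For the large subunit, the 5' set changed by 0.56 and the middle set by 0.51 (adjusted p 5.49e-04 and 2.52e-04).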

How the results depend on the processing

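The 30 calls kept their direction under the 16 alternatives (15 for NDUFAF5, which the filter at the median signal leaves out), and 17 also kept their side of the threshold under each. The count of members called higher ran from 22 (cyclic loess) to 45 (intensity trend), and from 21 to 27 with 1 array left out. The count of members called lower was 0 but 1 under quantile normalisation, 1 under cyclic loess, 1 without genes under the median signal and 1 with an intensity trend; each time it was NDUFS7, at -0.19, -0.18, -0.12 and -0.12 (adjusted p 0.0151, 0.0167, 0.0388 and 0.0279). The median log2 change over members, 0.0994, was 0.0512 after quantile normalisation, 0.0323 after cyclic loess, 0.1193 after median centring and 0.0764 with probe sets averaged per gene; the cause was not tested. The brightest decile of all genes moved with it, from a median of 0.0522 to 9e-04 and -0.0091 under the first 2 of these, and its share called higher fell from 28.1% to 19.6% and 18.8%, beside 24% and 21.3% of the members in it. Complex I had 12 calls and 18 after median centring, 8 without AAPK replicate 2; complex III had 2 and 1 without DMSO replicate 1, DMSO replicate 2, AAPK replicate 2 or AAPK replicate 3. With the replicate block, 26 members were called higher. Deviations of same-numbered arrays from their group means correlated at -0.019, -0.227 and -0.047 over all genes. The labels do not say whether equal numbers share a culture or day, and such correlations cannot settle it. ATP5IF1 passed as higher with an intensity trend (adjusted p 0.0202). The smallest change called was 0.15 (NDUFB1), and for the 8 members at or under the median signal background limits what can be seen.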

Other observations

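Genes that transcribe, process and maintain mitochondrial DNA were read beside the members, with 6 of 24 called higher and 6 called lower (25% each), beside 8.11% and 7.26% of all genes and 19.3% and 11.2% of the signal decile that holds the median signal of the list. Their median change was -0.029 on the log2 scale, and 0.0011 without AAPK replicate 3. PRORP, the nuclease of mitochondrial RNase P, which cuts tRNAs out of the long mitochondrial transcripts, read 6.67, 6.74 and 6.78 in DMSO and 7.42, 7.43 and 7.25 in AAPK. It rose by 0.64 ± 0.06 or 1.56-fold (limma, adjusted p 7.1e-05), with no overlap, and kept the call under all 15 alternatives in which it was tested. The other 2 subunits of RNase P, named after their values were seen, also passed: TRMT10C rose by 0.32 (adjusted p 0.00441) and HSD17B10 by 0.20 (adjusted p 0.0125), the latter not after quantile or cyclic loess normalisation nor without AAPK replicate 2 (adjusted p up to 0.0531). ELAC2, which cuts the other end of the tRNAs, rose by 0.36 ± 0.06 (adjusted p 0.0025), with its 3 other sets at 0.16 to 0.32. PNPT1, an RNA-degrading enzyme of mitochondria, rose by 0.37 ± 0.05 (adjusted p 9.05e-04). MGME1, a nuclease of mitochondrial DNA maintenance, read 9.16, 9.18 and 9.27 against 8.81, 8.91 and 8.91 and fell by 0.33 ± 0.05 (adjusted p 0.00175). The count of genes called lower was 6 and dropped to between 2 and 4 when any 1 array was left out: 2 without DMSO replicate 1, 3 without DMSO replicate 2 or 3 or AAPK replicate 1 or 3, and 4 without AAPK replicate 2.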
